A study of Mus musculus with 6 samples.

Results

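The 37 genes described here encode soluble enzymes and membrane proteins of the lysosome, subunits of its proton pump, and the transcription factors TFEB and TFE3. They are a list of gene names with no measured value in its rule, drawn up with earlier results of these data known, and all 37 were found among the 37620 genes of the count table. All 37 also passed the filter on low counts, which 16023 genes passed in all. Expression was measured by RNA-seq of polyA RNA in 3 libraries of wild-type E14 mouse ESCs and 3 libraries of E14 ESCs carrying the *Ube2d3*-S138A mutation, in which a serine of the ubiquitin-conjugating enzyme UBE2D3 is replaced with alanine. E14 is an ESC line of strain 129/Ola, and cells of both genotypes were cultured in medium with 15% serum. The mutant cells were made by CRISPR/Cas9 editing and picked as clones. For its functional analysis the study compared wild-type cells with a single S138A clone and with a revertant line made from that clone. No library here is of the revertant, and the labels do not say whether the S138A libraries come from that clone. Nor is it stated that libraries of a genotype are separate cultures, and p-values then measure a spread that may be technical only. The mutation is a change of codon, which counts per gene cannot check. Letters from A to C name the S138A libraries, whose columns have no replicate number.

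Lysosomes are the acidic organelles in which cells break down proteins, glycans and lipids delivered by endocytosis and autophagy. The vacuolar ATPase (V-ATPase) acidifies them. Its V1 sector hydrolyzes ATP on the cytosolic side and its membrane-embedded V0 sector carries the protons across. TFEB and TFE3 are basic helix-loop-helix factors that bind a palindromic promoter element called CLEAR and activate many lysosomal genes, and both are held in the cytoplasm when mTORC1 is active. In mouse ESCs, TFE3 is also known for its part in the exit from pluripotency.

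The core of the CLEAR element, TCACGTGA, reads the same on both strands and contains the plain E-box core CACGTG. RefSeq promoter windows of 300 bases (GRCm38.p6, 250 bases before the transcription start site and 50 after) were matched for 32 of the 37 members. *Atp6v1b2*, *Atp6v1h*, *Ctsb*, *Ctsh* and *Npc1* were not matched. TCACGTGA was found in the windows of 6 of the 32 matched members (18.8%), against 0.974% of all 32851 windows and 1.12% of the 27025 genes with a window. CACGTG was found in 12 of the 32 (37.5%), against 7.15% of windows and 8.09% of genes. Among 71 other genes of the lysosomal pathway with a window, 6 had TCACGTGA and 17 had CACGTG. As many lysosomal genes are known targets of TFEB and TFE3, a larger share among the members is no independent result. It was not tested. The sites of the 6 members are given here because they are the copies of the element that the windows hold, with TCACGTGA in capitals and positions counted from the start site at 0.
*Mcoln1*, -46 to -39, chr8:3500449-3500504, plus strand: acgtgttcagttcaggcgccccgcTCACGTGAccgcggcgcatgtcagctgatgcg
*Ctsa*, -13 to -6, chr2:164833736-164833772, plus strand: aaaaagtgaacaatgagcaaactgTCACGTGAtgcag
*Ctsd*, -99 to -92, chr7:142387895-142387950, minus strand: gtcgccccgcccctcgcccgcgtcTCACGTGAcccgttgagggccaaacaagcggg
*Gla*, -228 to -221, chrX:134601202-134601255, minus strand: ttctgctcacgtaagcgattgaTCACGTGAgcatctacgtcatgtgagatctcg
*Gla*, -195 to -188, chrX:134601169-134601224, minus strand: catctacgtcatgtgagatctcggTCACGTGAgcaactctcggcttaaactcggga
*Atp6v0d1*, -4 to 3, chr8:105566050-105566092, minus strand: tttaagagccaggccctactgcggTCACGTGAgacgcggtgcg
*Atp6v1a*, -132 to -125, chr16:44139360-44139415, minus strand: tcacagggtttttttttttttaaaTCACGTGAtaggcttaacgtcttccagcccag

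*Ctsa* had a further copy just after its start site, at positions 4 to 11. *Lamp1* held no TCACGTGA but had 4 plain CACGTG cores in the last 70 bases before its start site, the most of any member, and is shown for that reason, after its sequence was seen. The cores are in capitals.
*Lamp1*, -70 to -1, chr8:13159091-13159160, plus strand: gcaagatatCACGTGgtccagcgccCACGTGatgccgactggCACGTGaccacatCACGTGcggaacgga

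The other members with CACGTG but not the longer element were *Ctsl*, *Lgmn*, *Gaa*, *Glb1* and *Atp6v0b*. A match of letters is a description of the window and does not show that a factor binds there in these cells.

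The libraries held between 33227593 and 37169770 counts. Scaled by TMM, the markers of pluripotent stem cells summed to between 6462 and 6558 CPM (counts scaled to library size) in wild-type libraries and between 6398 and 6522 in S138A libraries. Of these 8 markers, 3 had a positive and 5 a negative log2 fold change (S138A minus wild-type), between -0.35 and 0.16. The replicate block described below called 1 of them lower, where 9.13% of all genes were, and DESeq2 called 0. Markers of macrophages, a cell type rich in lysosomes, summed to at most 2.04 CPM in wild-type and 2.55 in S138A libraries. *Lyz2*, *Adgre1* and *Tyrobp* were at 0 in most libraries and none of them was above 0.03 CPM. Most of the sum lay in the other markers, *Ptprc*, *Csf1r* and *Itgam*. Of the 6 markers, 2 passed the filter, with log2 fold changes of 0.12 and 1.08. The unadjusted edgeR p was under 0.05 for 1 of them, and 0 were called. Markers of fibroblasts summed to between 41.9 and 65.6 CPM in wild-type and between 68.8 and 114.4 CPM in S138A libraries, which did not overlap. Of these 6 markers, 5 had a positive and 1 a negative log2 fold change. DESeq2 called 3 of them higher in S138A, where 2.84% of all genes were. With the replicate block 3 were called higher, where 10.7% of all genes were. The sum over markers of primitive endoderm did not overlap either and was lower in S138A, with between 89.1 and 98.4 CPM in wild-type and between 73.6 and 83.7 CPM in S138A libraries. By gene these markers had no common direction, with 3 positive and 3 negative log2 fold changes and a median of 0.08. Of the 6, 1 was called lower by DESeq2, where 2.55% of all genes were, and with the block, where 9.13% were. Taken singly, 11.3% of all genes tested lay wholly above wild-type in S138A and 10.9% wholly below. The part of either list in the results on genotype was not tested. In such bulk RNA, a change in the number of cells of a type and a change in the RNA of each cell cannot be told apart. In a principal component analysis, component 1 (57.2% of the variance) set wild-type 3 and S138A C apart from the other 4 libraries and component 2 (25.6%) separated the genotypes. Results that rest on wild-type 3 or S138A C are therefore given with and without these 2 libraries.

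Levels of different genes were compared as CPM per kilobase of the longest coding transcript. *Lamp1*, an abundant glycoprotein of the lysosomal membrane, had the highest level in wild-type ESCs, at 136 ± 4.33 CPM per kilobase (SD, n = 3 libraries). It was followed by *Ctsd*, the aspartic protease cathepsin D, at 85.7 ± 16.9 and *Psap*, the precursor of the saposins, at 77.0 ± 16.7. The V1 subunit gene *Atp6v1b2* had 66.7 ± 3.84, the tetraspanin gene *Cd63* 61.5 ± 5.16 and the V0 subunit gene *Atp6v0b* 57.5 ± 3.99 CPM per kilobase. *Lamp1* lay above *Ctsd* in every wild-type library, whereas the ranges from *Ctsd* down to *Atp6v0b* overlapped from each gene to the next.

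At the low end were *Lipa* (lysosomal acid lipase) at 3.00 ± 0.961, *Idua* (alpha-L-iduronidase) at 1.41 ± 0.769 and *Ctsh* (cathepsin H) at 0.158 ± 0.0749 CPM per kilobase. *Ctsh* had between 4 and 32 counts in a library, whereas each other member had at least 110. The highest level was 859 times the lowest, yet 29 of the 36 pairs of neighbors in the order overlapped over the 3 wild-type libraries. By this length *Tfe3* was above *Tfeb*, at 31.9 ± 8.57 CPM per kilobase in wild-type ESCs against 9.22 ± 1.07. In S138A ESCs the values were 32.7 ± 6.13 and 14.7 ± 3.18. The order depends on the transcript length used. With the median length of coding transcripts, the order of the factor genes turned, at 39.2 CPM per kilobase for *Tfeb* and 35.1 for *Tfe3* in wild-type ESCs, *Atp6v1a* moved from rank 7 to rank 1 and *Ctsl* from rank 15 to rank 3.

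**Figure D1:**
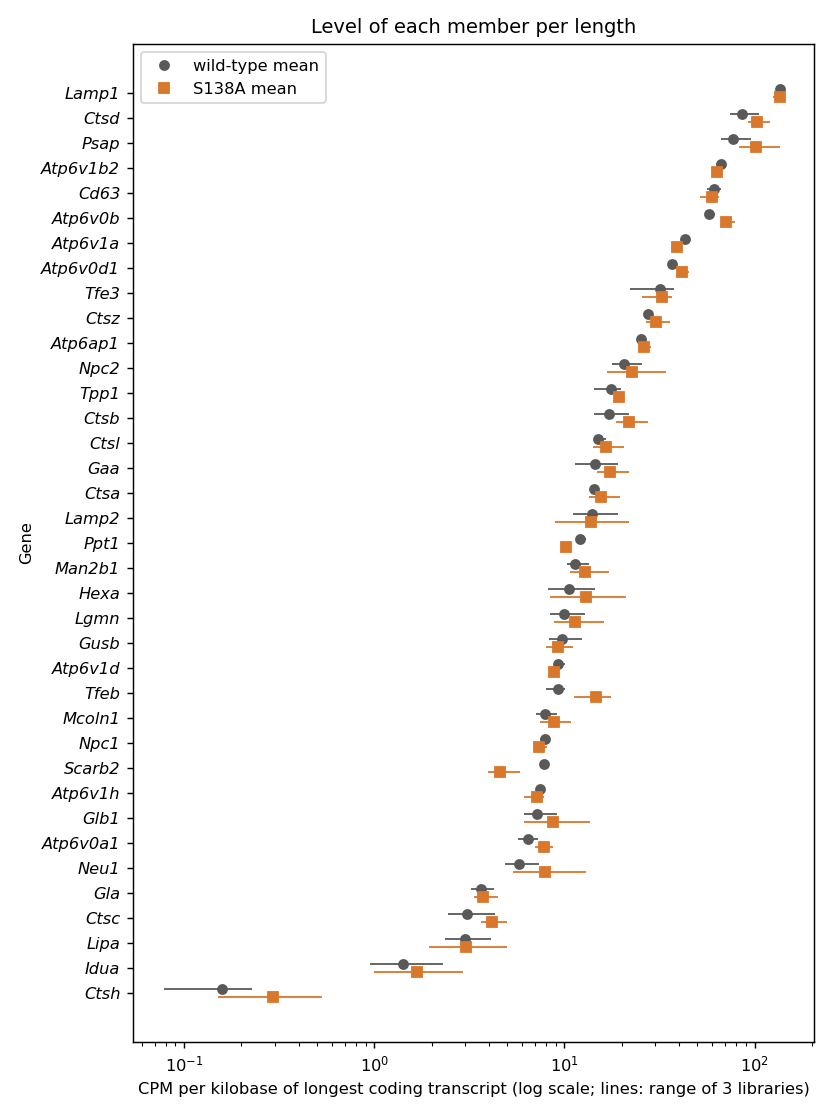
Level of each of the 37 members as CPM per kilobase of the longest coding transcript, on a log axis, in wild-type (circles) and S138A (squares) ESCs. Symbols are means and lines the range of 3 libraries. *Lamp1* is highest, *Ctsh* is lowest, and most neighboring genes overlap.

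Reads shared with other genes could enter some of these values. In GENCODE M21, 34.4% of the exon bases of *Ctsd* overlap *Gm49369* on the same strand, and 26.8% of those of *Ctsl* overlap the antisense gene *Gm47123*. For *Ctsb* the overlap was 12.8%, with *Fdft1*, and for *Hexa* 12.8%, with *Tmem202*, both on the opposite strand. For *Atp6v0b* it was 11.8%, with the antisense gene *Gm12841*. *Ctsa* overlapped *Pltp* by 10.5% and *Neurl2* by 6.87%, both on the opposite strand. The library kit keeps the strand of the RNA, but whether counting used it is not stated. No overlap with other exons was listed for *Scarb2*, *Tfeb*, *Tfe3* or *Psap*.

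Within each genotype, 1 library stood out for the hydrolase genes. Wild-type 3 and S138A C were both above all 4 other libraries for 21 of the 37 members (56.8%), compared with 24.6% of all genes tested. They were both below the other 4 for 5 members, namely *Lamp1*, *Cd63*, *Atp6v1b2*, *Atp6v1d* and *Tfe3*, compared with 24.4% of all genes. The median log2 ratio of the mean CPM of these 2 libraries to that of the other 4 was 0.36 over the members, 0.15 over 87 other genes of the lysosomal pathway and 0.00 over all genes tested. Of the other pathway genes, 32 of 87 (36.8%) were above in both libraries. The libraries were set apart on the expression of all genes, members included, so these figures are descriptions without a test.

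The count differed from role to role, which was not tested. All 8 glycosidase genes, 7 of 9 peptidase genes and 2 of 3 genes for lipid and thioester hydrolases and saposins were above in both libraries, but 0 of the 3 V0 and 0 of the 4 V1 subunit genes. The accessory subunit gene *Atp6ap1* was above in both, and of the 7 membrane and cholesterol transport genes 3 were above and 2 below. Of 11 further V-ATPase subunit genes that are not members, 3 were above (27.3%). The counts for the glycosidases, the lipid group, V0 and V1 were the same with RLE factors, upper-quartile factors or plain CPM, and with the last of these settings and with upper-quartile factors 8 peptidases were above. *Idua* was the glycosidase with the widest gap. It had 3.36, 3.48 and 8.13 CPM in the wild-type libraries and 3.88, 3.51 and 10.3 CPM in S138A A, B and C, so that the 4 other libraries lay close together irrespective of genotype. *Hexa*, the alpha subunit of beta-hexosaminidase, had 17.6, 16.4 and 28.9 CPM in wild-type and 16.9, 19.3 and 42.1 CPM in S138A libraries. *Lamp2*, the second major glycoprotein of the lysosomal membrane, had 40.1, 42.0 and 69.2 CPM against 37, 32.2 and 79.2 CPM, a far wider spread within genotype than that of *Lamp1*. *Npc2*, which hands cholesterol to NPC1 in the lysosome lumen, had 59.1, 60.8 and 84.5 CPM against 55.3, 56.9 and 112.3 CPM.

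**Figure D2:**
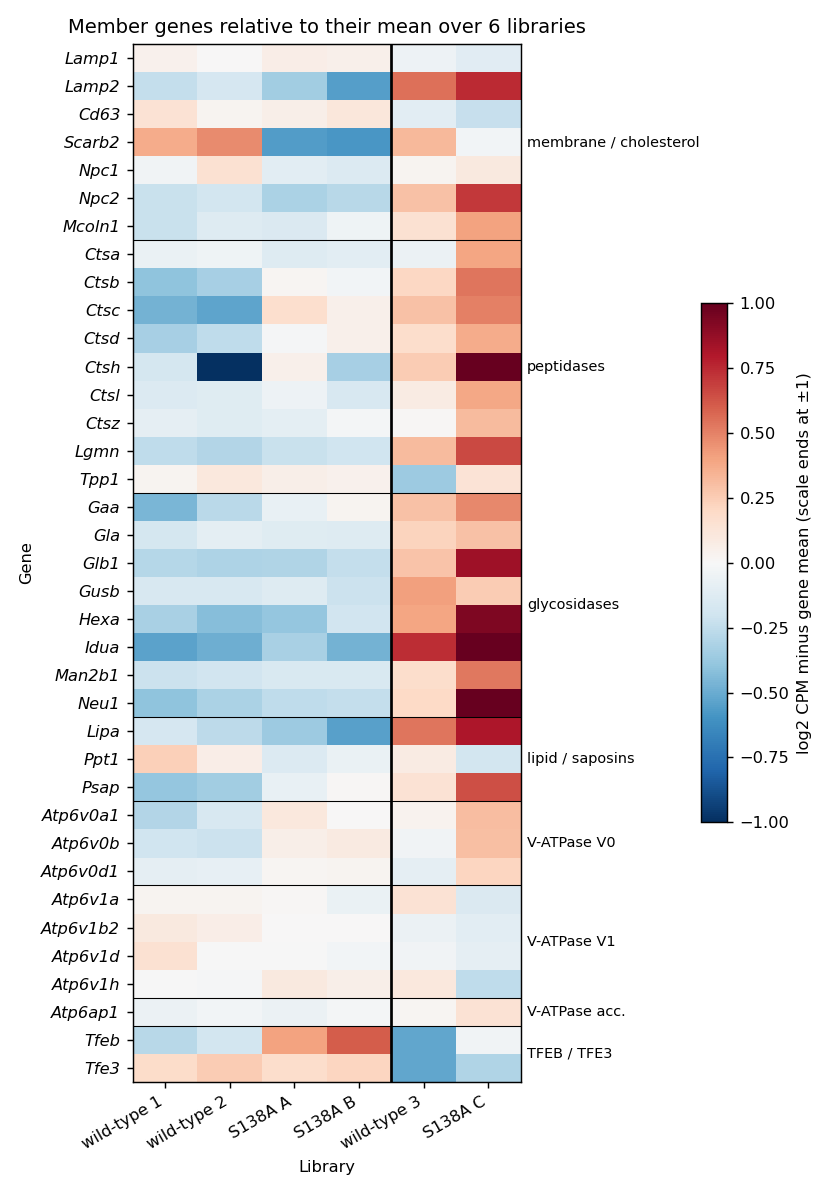
Log2 CPM of each member minus its mean over the 6 libraries, with members grouped by role and columns ordered so that wild-type 3 and S138A C stand right of the black line. Most hydrolase genes are red in these 2 libraries, the V-ATPase genes are pale in all 6, and *Scarb2* and *Tfeb* differ between the genotypes left of the line.

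*Tfe3* went the other way in the same libraries, with 121.7, 127.8 and 74.7 CPM in wild-type and 120.8, 124.5 and 86.8 CPM in S138A ESCs. *Tfeb* was also lowest in wild-type 3 and S138A C within each genotype. The shift therefore ran in opposite directions in the factor genes and in most of the hydrolase genes. Over the members as a whole, the share of all counts was between 0.207% and 0.254% in wild-type libraries and between 0.232% and 0.306% in S138A libraries, with the highest value of each genotype in wild-type 3 and S138A C.

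**Figure D3:**
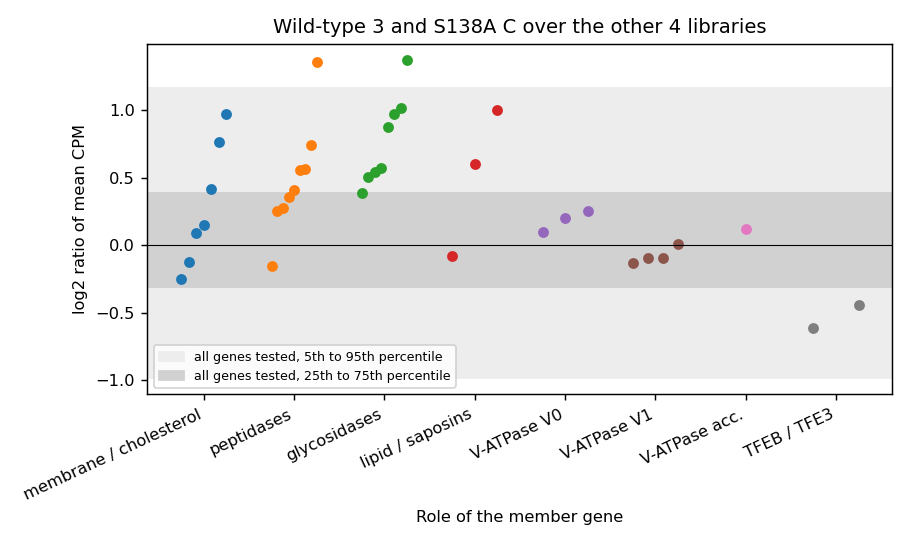
Log2 ratio of the mean CPM in wild-type 3 and S138A C to the mean CPM in the other 4 libraries, 1 point per member, by role. The gray bands span the 25th to 75th and the 5th to 95th percentiles of all 16023 genes tested. The 8 glycosidase genes have a median of 0.72, and *Tfeb* and *Tfe3* lie below 0.

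Comparing the genotypes asks whether the mutation goes with a change in the mRNA of these genes. In the edgeR quasi-likelihood test with Benjamini-Hochberg adjustment, 0 of the 37 members had an adjusted p under 0.05, and 0 of the 16023 genes tested did (0%). At an unadjusted p under 0.05, 2 members were higher in S138A (*Tfeb* and *Atp6v0b*), against 7.62% of all genes, and 1 was lower (*Scarb2*), against 6.55%. The S138A libraries lay wholly above the wild-type libraries for *Tfeb*, *Atp6v0b* and *Atp6v0d1*, 3 of 37 members against 11.3% of all genes. They lay wholly below for *Scarb2*, *Ppt1* and *Atp6v1a*, 3 of 37 members against 10.9% of all genes. None of these shares exceeded that of all genes.

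Of the members, 27 had a positive log2 fold change and 10 a negative one, while 52.4% of all genes tested had a positive one. The median log2 fold change was 0.14 over the members, 0.03 over the other pathway genes and 0.02 over all genes. Without wild-type 3 and S138A C the median of the members was 0.03, beside 0.00 over all genes, so most of the members' shift lay in these 2 libraries. Leaving out S138A C alone, which keeps wild-type 3, turned the sign of 15 members, among them *Idua*, *Hexa*, *Glb1* and *Neu1*. Without both libraries 6 members turned. *Idua*, *Hexa*, *Glb1* and *Neu1* then stayed positive, at 0.11, 0.08, 0.02 and 0.11.

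DESeq2 called 1 member higher (*Tfeb*), where 2.84% of all genes with an adjusted p were called higher, and 1 lower (*Scarb2*), where 2.55% were called lower. With the final digit of the column name as a replicate block in the edgeR fit, 7 members were called higher, namely *Tfeb*, *Ctsb*, *Ctsc*, *Ctsd*, *Gaa*, *Psap* and *Atp6v0b*, and 1 lower, *Scarb2*. In the same fit 10.7% of all genes were called higher and 9.13% lower. In the edgeR fit of the 4 libraries without wild-type 3 and S138A C, where 36 members passed the filter, the same 7 members and *Atp6v0a1* were called higher and *Scarb2* lower. There 15.3% of all genes were called higher and 14.3% lower. The share of members called higher was above that of all genes in both fits, and the share called lower was below it. In either direction, 8 of 37 members were called with the block, where 19.8% of all genes were. In the 4 libraries 9 of 36 were, where 29.6% of all genes were. These counts are small, and the differences in share were not tested.

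**Figure D4:**
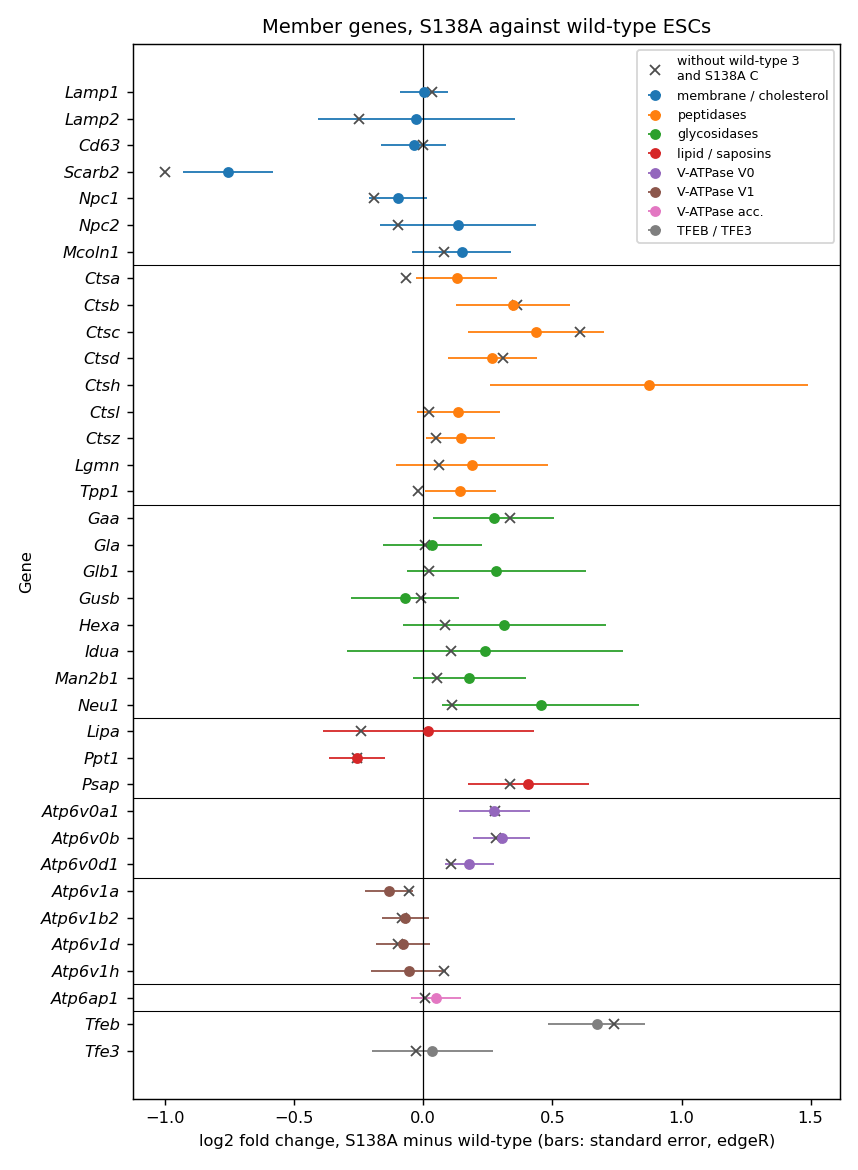
Log2 fold change of each member, S138A minus wild-type, from edgeR (circles, with standard errors as bars) and from the 4 libraries without wild-type 3 and S138A C (crosses). *Scarb2* lies farthest below 0 and *Tfeb* farthest above 0 among the members with over 1 CPM. *Ctsh* has no cross because it did not pass the filter in that fit.

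*Tfeb* had the largest positive log2 fold change of the members above 1 CPM. Its level was 22.2, 23.7 and 18.8 CPM in the wild-type libraries and 35.7, 41.1 and 26.4 CPM in S138A A, B and C. Every S138A library was above every wild-type library, and S138A C was the nearest. The fold change was 1.59 (log2 0.67 ± 0.187, SE). The edgeR adjusted p was 0.224 over all genes, 0.00862 with the replicate block, 0.00168 in the 4 libraries and 0.0416 by DESeq2. *Tfe3* had a log2 fold change of 0.04 ± 0.234 (edgeR adjusted p = 0.965), and its groups overlapped throughout.

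*Scarb2* encodes LIMP-2, the membrane receptor that carries beta-glucocerebrosidase to the lysosome. It had 36.0, 38.7 and 34.8 CPM in wild-type and 18.9, 18.6 and 27.3 CPM in S138A libraries. All S138A values were below all wild-type values, with A and B close to each other and C between them and the wild-type. The level in wild-type ESCs was 1.69 times that in S138A ESCs (log2 fold change -0.76 ± 0.174, SE). The edgeR adjusted p was 0.191 with all 6 libraries, 0.0137 with the replicate block and 0.000253 in the 4 libraries, where the log2 fold change was -1.0. By DESeq2 the adjusted p was 0.00698. It was also the only member called when S138A C alone was left out of the edgeR fit. There 79 of 16329 genes were called in all (0.484%), 20 of them lower (0.122%).

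The other 6 membrane and cholesterol transport genes were not called in any of these fits. *Lamp1* had 311.3, 303.3 and 292.1 CPM in wild-type and 316.6, 313.8 and 278.8 CPM in S138A libraries, a log2 fold change of 0.00 ± 0.0931. *Npc1*, the membrane protein that exports cholesterol from the lysosome, had 38.7, 44.1 and 40.4 CPM against 36.7, 36.0 and 42.3 CPM, with a log2 fold change of -0.10 ± 0.112. *Mcoln1*, the lysosomal calcium channel TRPML1, had 0.15 ± 0.192 on the same scale. *Cd63*, *Lamp2* and *Npc2* had log2 fold changes of -0.04, -0.03 and 0.14.

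All 9 peptidase genes had a positive log2 fold change, between 0.13 and 0.87, and 0 of them were called with all 6 libraries. *Ctsc*, which activates serine proteases of immune cells, had 8.14, 7.85 and 13.8 CPM in wild-type and 12.7, 11.7 and 16.0 CPM in S138A libraries. *Ctsb*, a cysteine cathepsin, had 68.1, 71.3 and 104.0 CPM against 91.3, 88.2 and 130.5 CPM. *Ctsd* had 157.5, 165.9 and 223.5 CPM against 196.3, 205.3 and 256.8 CPM. In each of these 3 genes S138A A and B exceeded wild-type 1 and 2, and S138A C exceeded wild-type 3, but wild-type 3 lay above S138A A and B.

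The log2 fold changes were 0.44 ± 0.263 for *Ctsc*, 0.35 ± 0.220 for *Ctsb* and 0.27 ± 0.172 for *Ctsd*. The edgeR adjusted p was 0.503, 0.527 and 0.533 with all 6 libraries and 0.0359, 0.0161 and 0.0276 with the replicate block. In the 4 libraries it was 0.00447, 0.00476 and 0.00777. Without S138A C alone the log2 fold changes were 0.29, 0.14 and 0.14, and without wild-type 3 alone 0.75, 0.57 and 0.44. *Ctsh* had the largest log2 fold change of all members with all 6 libraries, 0.87 ± 0.617, on 9, 4 and 14 counts in wild-type and 11, 9 and 32 counts in S138A libraries, with overlapping groups. Without S138A C it was 0.11, and *Tfeb* was then the largest at 0.83. *Ctsa*, *Ctsl*, *Ctsz*, *Lgmn* and *Tpp1* had log2 fold changes between 0.13 and 0.19 and were called in no fit. *Ctsa* had the even values of 51.6, 52.4 and 51.9 CPM in wild-type ESCs and 49.3, 50.2 and 71.1 CPM in S138A A, B and C, so its positive value came from S138A C.

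Among the glycosidase genes 7 of 8 had a positive log2 fold change, and the range was -0.07 to 0.45. *Neu1*, the lysosomal sialidase, had the largest at 0.45 ± 0.381, with 12.0, 12.7 and 18.2 CPM in wild-type and 13.3, 13.5 and 32.1 CPM in S138A libraries. Without wild-type 3 and S138A C it was 0.11 (edgeR adjusted p = 0.362). *Gaa*, the alpha-glucosidase that degrades glycogen, had 41.2, 47.1 and 69.4 CPM against 53.8, 57.7 and 79.0 CPM, a log2 fold change of 0.27 ± 0.233. It was the one glycosidase called with the replicate block (edgeR adjusted p = 0.0348) and in the 4 libraries (0.0189). Its log2 fold change was 0.0805 without S138A C alone, 0.12 without wild-type 1 and 0.52 without wild-type 3. *Gusb*, the beta-glucuronidase, had 22.3, 22.3 and 33.3 CPM against 22.9, 21.5 and 29.8 CPM and was the only glycosidase with a negative value, -0.07 ± 0.210. *Gla*, *Glb1*, *Hexa*, *Idua* and *Man2b1* had log2 fold changes between 0.04 and 0.31, which shrank to between 0.01 and 0.11 without the 2 libraries.

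*Psap* had 176.6, 181.3 and 255.6 CPM in wild-type and 219.5, 233.1 and 360.5 CPM in S138A libraries. The pattern was that of *Ctsb* and *Ctsd*, with wild-type 3 above S138A A and B. The log2 fold change was 0.41 ± 0.234, with an edgeR adjusted p of 0.485 in all 6 libraries, 0.0128 with the replicate block and 0.00554 in the 4 libraries. The log2 fold change was 0.14 without S138A C alone and 0.60 without wild-type 3. *Ppt1*, a thioesterase that removes palmitate from proteins, moved little between the 2 libraries and the rest. It had 31.1, 27.6 and 28.0 CPM in wild-type and 24, 25.3 and 23.2 CPM in S138A libraries, which did not overlap. Its log2 fold change was -0.26 ± 0.109 (edgeR adjusted p = 0.356), and -0.26 without the 2 libraries (0.0533). With all 6 libraries and a term that separates wild-type 3 and S138A C from the rest it was called (edgeR adjusted p = 0.0376). *Lipa* had a log2 fold change of 0.02 ± 0.409, which was -0.24 without the 2 libraries.

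**Figure D5:**
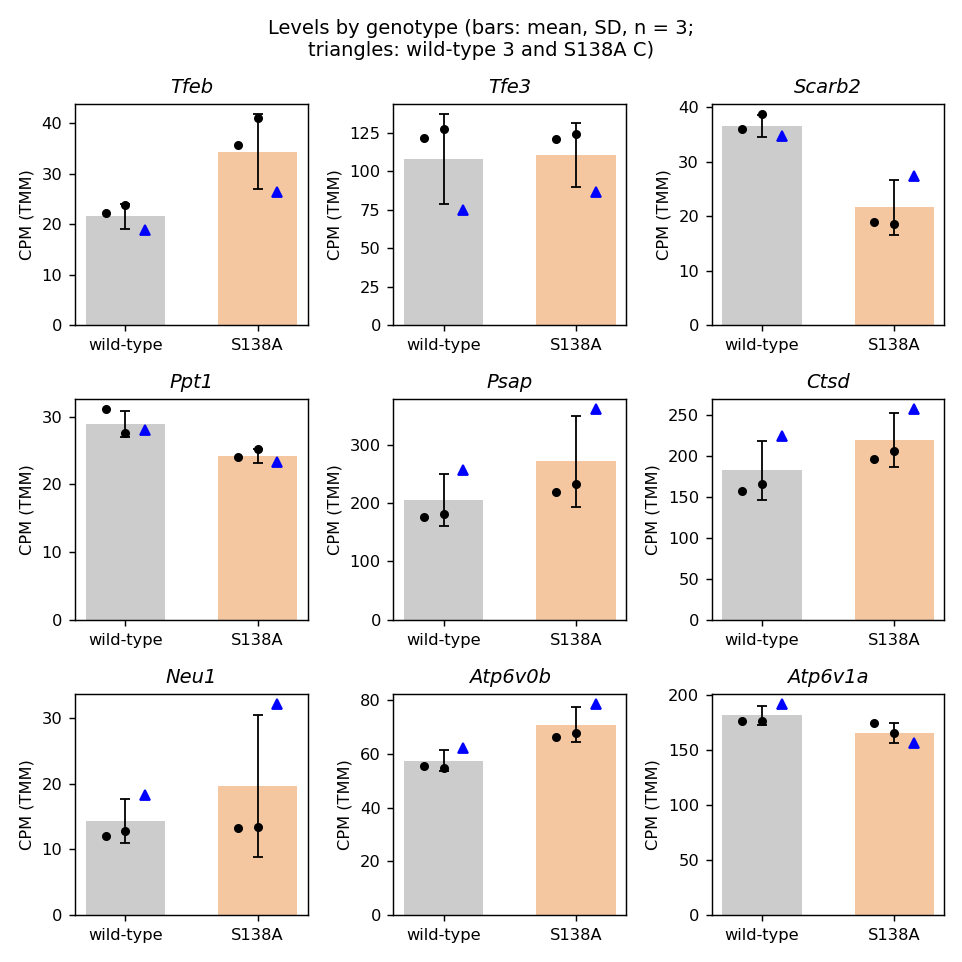
CPM scaled by TMM of 9 members in the 3 wild-type and 3 S138A libraries. Bars are means with SD (n = 3), circles are wild-type 1 and 2 and S138A A and B, and triangles are wild-type 3 and S138A C. *Tfeb*, *Scarb2*, *Ppt1*, *Atp6v0b* and *Atp6v1a* do not overlap between the genotypes, whereas *Tfe3*, *Psap*, *Ctsd* and *Neu1* do.

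The 3 V0 members had positive and the 4 V1 members negative log2 fold changes with TMM scaling, and 0 of these 7 genes were called with all 6 libraries. *Atp6v0b*, which encodes a subunit of the proteolipid ring, had 55.5, 54.9 and 62.1 CPM in wild-type and 66.4, 67.9 and 78.6 CPM in S138A libraries, without overlap. Its log2 fold change was 0.30 ± 0.110, with an edgeR adjusted p of 0.30 in all 6 libraries, 0.0239 with the replicate block and 0.0106 in the 4 libraries. *Atp6v0d1*, which links the ring to the V1 stalk, had 59.8, 60.1 and 59.6 CPM against 64.5, 65.0 and 73.7 CPM, also without overlap, and a log2 fold change of 0.18 ± 0.0952 (adjusted p = 0.456). *Atp6v0a1*, a subunit of the proton path, had 0.28 ± 0.139 (0.429) and was called in the 4 libraries (0.0371). Summed over the 3 V0 genes, the wild-type libraries held between 138.3 and 150.6 CPM and the S138A libraries between 161.1 and 187.1 CPM.

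The 4 V1 genes had log2 fold changes between -0.13 and -0.06, and 0 of 4 were called in any fit. *Atp6v1a*, the catalytic subunit, had 176.4, 176.7 and 191.9 CPM in wild-type and 174.8, 165.8 and 156.7 CPM in S138A libraries, without overlap by a narrow margin, and -0.13 ± 0.0918. *Atp6v1b2*, its partner in the ATPase ring, had 196.9, 192.2 and 176.2 CPM against 184.2, 184.0 and 170.4 CPM and -0.07 ± 0.0918. *Atp6v1d*, in the central stalk, had 36.8, 33 and 32.2 CPM against 32.9, 32.5 and 31.1 CPM and -0.08 ± 0.104. The regulatory subunit gene *Atp6v1h* had -0.06 ± 0.146, which was 0.08 without the 2 libraries. Their sign depends on scaling. With plain CPM, which moved the median of all genes to 0.10, 3 of the 4 V1 genes were positive and their median was 0.01, below that of all genes, while the V0 median was 0.36. With TMM the V0 and V1 medians were 0.28 and -0.07, beside 0.02 over all genes. *Atp6ap1*, an accessory subunit, had 54.1, 55.4 and 57.1 CPM against 54.3, 55.8 and 62.4 CPM, a log2 fold change of 0.05 ± 0.0973.

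The 6 members with TCACGTGA in the promoter window had no common direction. *Ctsd*, *Atp6v0d1*, *Mcoln1*, *Ctsa* and *Gla* had log2 fold changes between 0.04 and 0.27, and *Atp6v1a* had -0.13. *Lamp1*, with 4 plain cores, had 0.00. In wild-type 3 and S138A C, *Mcoln1*, *Ctsd* and *Gla* were above the other 4 libraries and *Ctsa*, *Atp6v0d1* and *Atp6v1a* were not.

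Another 94 genes of the pathway, in 8 lists by role, were taken beside the members, and 87 of them were tested. Those not tested for low counts were *Ctse*, *Ctss*, *Atp6v0d2*, *Atp6v1b1*, *Atp6v1c2*, *Lamp3* and *Tfec*. With all 6 libraries 0 of 87 were called by edgeR and 12 had an unadjusted p under 0.05. Of these, 8 were higher in S138A, against 7.62% of all genes, and 4 lower, against 6.55%. With the replicate block 12 of 87 were called higher, where 10.7% of all genes were, and 1 lower, where 9.13% were. Of 86 with an adjusted p by DESeq2, 1 was called higher, where 2.84% of all genes were, and 0 lower, where 2.55% were. The gene called was *Cd68*, which encodes a heavily glycosylated membrane protein of the lysosome. *Cd68* had 23.4, 22.6 and 21.5 CPM in wild-type and 29.2, 30.01 and 27.6 CPM in S138A libraries, with an adjusted p of 0.0253 by DESeq2 and 0.228 by edgeR. Its log2 fold change of 0.36 ± 0.105 was the same without wild-type 3 and S138A C.

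Among the 18 further glycosidases, sulfatases and cofactors, 13 had a positive log2 fold change, and 10 were above the other libraries in both wild-type 3 and S138A C. *Hyal2*, a hyaluronidase, had 0.52 ± 0.177 and *Fuca1*, the alpha-fucosidase, 0.27 ± 0.162. The edgeR adjusted p of *Hyal2* was 0.280, and 0.0116 with the replicate block. Among the lipid hydrolases, *Smpd1*, the acid sphingomyelinase, had 0.46 ± 0.195 (0.0263 with the block) and the phospholipase gene *Pla2g15* had 0.24 ± 0.160. *Ctsf* had 0.66 ± 0.226 (0.0103 with the block), whereas *Ctsw* had -0.53 ± 0.399 at no more than 2.18 CPM in a library.

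Of the 11 further V-ATPase subunit genes, 7 had a positive log2 fold change, with the lowest unadjusted p for *Atp6v1f* at 0.39 ± 0.156 and *Atp6v1g2* at 0.59 ± 0.295. Both encode V1 subunits, so the sign of the 4 V1 members was not that of all V1 genes. *Clcn7*, the lysosomal chloride and proton exchanger, had 0.27 ± 0.114. *Gnptab* and *Gnptg* encode subunits of the enzyme that tags hydrolases with mannose 6-phosphate. *Gnptab* had 57.3, 67.0 and 68.3 CPM in wild-type and 51.2, 49.3 and 55.5 CPM in S138A libraries, a log2 fold change of -0.30 ± 0.110 (edgeR adjusted p = 0.30, and 0.0373 with the replicate block), while *Gnptg* had 0.30 ± 0.140.

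Of the 14 tested relatives and regulators of TFEB, 12 had a negative log2 fold change with TMM, and 7 with plain CPM. The lowest unadjusted p was that of *Lamtor5* (-0.27 ± 0.113) and *Lamtor2* (-0.27 ± 0.154), subunits of the Ragulator complex that anchors mTORC1 regulators to the lysosome, and 0 of the 14 were called with the block. Among 15 autophagy genes, 9 had a positive and 6 a negative log2 fold change. *Atg9a*, a lipid scramblase of the autophagosome, had 0.47 ± 0.162 (0.0156 with the block), and *Atg7*, an E1-like enzyme, 0.49 ± 0.186 (0.0517 with the block).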

How the data were processed

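Libraries of polyA RNA from E14 ESCs, 3 of wild-type and 3 of S138A cells, were compared. The submitters' processing notes name CASAVA (1.8.4), TopHat2 (2.0.11), featureCounts and the genome build mm9, also called NCBIM37. The counts per gene deposited by the authors were not normalized, and the settings of featureCounts are not given in the sources used here. ERCC RNA was added, but the table held 0 spike-in rows. Symbols were matched by identifier for 32897 genes (87.4%). Counting error was not estimated on its own. *Ctsh* had between 4 and 32 counts in a library, and each other member at least 110.

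Counts were analyzed with edgeR (4.0.16, in R 4.3.3; TMM factors, filterByExpr with minimum count 10 and minimum total 15, quasi-likelihood test, genotype as the only term). A gene was called if its p, adjusted by Benjamini-Hochberg over all 16023 genes tested, was under 0.05. Alternatives were factors by RLE or upper quartile, filters of 1 count in all or 1 CPM in 3 libraries, DESeq2 (1.42.0), limma-voom (limma 3.58.1), each library left out, a replicate block, a term that separates wild-type 3 and S138A C from the rest, and the fit without both. Scaling alternatives for the counts of members above or below in both of these libraries were added after seeing the data. Scripts were tested on simulated data. Figures were drawn with Python version 3.11.15 and matplotlib version 3.10.9.

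The block paired libraries by the final digit of the column name. Deviations from the group means correlated at 0.53, 0.493 and 0.753 within the 3 pairs, and at 0.515 and 0.526 with numbers 1 and 2 crossed, so only the column names, and no stated design, give the pairing. Transcript lengths and exon overlaps came from GENCODE M21 (GRCm38), another build than that of the counts, and promoters from RefSeq.

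The members and the lists of other pathway genes and markers were chosen with earlier results of these data known. Values in every library are given for *Tfeb* and *Tfe3*, the member of lowest p and of highest level in each role, and the 6 largest positive and 6 largest negative fold changes. Of other pathway genes, those of lowest p in each list are named, at most 2 per list. *Lamp2*, *Npc2*, *Hexa*, *Idua*, *Ctsa*, *Atp6v0d1* and *Atp6v0a1* were given values or described beyond that rule, after their values were seen.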

Additional observations from a re-analysis of the deposited data

How the results depend on the processing

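With all 6 libraries, 0 members, 0 other pathway genes and 0 genes in all were called by edgeR with TMM, RLE or upper-quartile factors, by the filter of 1 CPM and by limma-voom. Without a filter 4 genes were called and 0 members. DESeq2 called 2 members, 1 other pathway gene and 797 genes in all. The replicate block, paired as given in the methods, gave 8, 13 and 3180, the term for wild-type 3 and S138A C gave 10, 25 and 4418, the fit without these 2 libraries gave 9, 25 and 4756, and an unadjusted p under 0.05 gave 3, 12 and 2270. Leaving out each library in turn gave between 0 and 1 members, 0 other pathway genes and between 0 and 79 genes, with the highest values without S138A C. The counts with wild-type 3 and S138A C both below the other 4 were 5 members with TMM, 3 with upper-quartile factors and 2 with plain CPM. The counts with both above were between 21 and 22 members. The block turned the sign of *Lipa* and of no other member, and changed no call of a member beyond the 8 named in the report. Depth limits *Ctsh*, for which the filter of 1 CPM and the fit without wild-type 3 and S138A C gave no value and DESeq2 no adjusted p.

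*Lamp1* was 0.00 with RLE factors and by DESeq2 and -0.0086 without a filter, and *Lamp2* was 0.0016 with upper-quartile factors. *Lipa* was -0.0785 by limma-voom, -0.0523 with the replicate block and -0.049 with the term. Without wild-type 3 and S138A C, *Lipa* was -0.24, *Npc2* -0.10, *Ctsa* -0.0669, *Tpp1* -0.0192, *Tfe3* -0.0269 and *Atp6v1h* 0.0804. With 1 library left out, log2 fold changes ranged from -0.44 to 0.78 for *Idua*, -0.55 to 0.27 for *Lamp2*, -0.54 to 0.31 for *Lipa*, -0.22 to 0.61 for *Hexa*, -0.20 to 0.50 for *Glb1*, -0.28 to 0.32 for *Npc2*, -0.17 to 0.41 for *Lgmn* and -0.10 to 0.67 for *Neu1*, with the lowest value of each without S138A C. They ranged from -0.0888 to 0.32 for *Man2b1*, -0.0388 to 0.27 for *Mcoln1*, -0.12 to 0.16 for *Gla*, -0.23 to 0.15 for *Gusb*, -0.17 to 0.18 for *Tfe3*, -0.0525 to 0.23 for *Ctsl*, -0.0664 to 0.22 for *Ctsa*, -0.12 to 0.0408 for *Atp6v1h*, -0.11 to 0.0569 for *Cd63*, -0.0163 to 0.0886 for *Atp6ap1* and -0.0303 to 0.0572 for *Lamp1*. Members whose sign held could also move by over 1.5 times, from 0.11 to 1.23 for *Ctsh*, 0.14 to 0.60 for *Psap*, 0.14 to 0.57 for *Ctsb*, 0.29 to 0.75 for *Ctsc*, 0.14 to 0.44 for *Ctsd* and 0.0805 to 0.52 for *Gaa*, with the lowest value without S138A C (for *Ctsc*, without wild-type 2) and the highest without wild-type 3. The term for wild-type 3 and S138A C called *Ppt1*, *Atp6v0a1* and the 8 members called with the block. The cause was not tested.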
